A study of Mus musculus with 6 samples.

Results

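The circular RNAs (circRNAs) described here come from genes for cell adhesion and axon guidance, measured in the mouse hippocampus: cadherins and protocadherins, contactins, the Ncam, Nrcam, Lsamp, Dscam and netrin-G group, and the semaphorin, plexin, ephrin, Eph, Slit, Robo and Dcc/Unc5 families. Members are the circRNAs whose only listed host gene carries a symbol of one of these families; the rule uses gene names and no measured value, though the families were picked with earlier results of these data known. There were 185 such circRNAs out of 10652 in the table, from 54 of the 3667 hosts that had at least 1 circRNA assigned to a single gene. Of the 185, 167 were listed as exonic and 18 as intronic. The samples were hippocampi of adult male C57BL/6 mice (the protocol gives C57BL/6J), 8 to 10 weeks old when obtained. The CUS group of 3 samples went through 4 weeks of randomly scheduled stressors, among them food or water deprivation, restraint, cold swimming, cage tilt and wet bedding, and the Control group of 3 samples had no stressor. Samples are described as independent, but not as 1 mouse each, so a p-value here reflects only the spread among 3 samples per group, which may be technical. The protocol describes libraries of poly(A)-selected, dUTP-marked RNA with molecular identifiers. A circRNA has no poly(A) tail, so such a selection depletes circRNAs, and the labels do not say whether a different protocol was used for them.

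CircRNAs form when a downstream splice site is joined back to an upstream one, and a level here describes that circle and not the mRNA or protein of its host. Cadherins and protocadherins are calcium-dependent adhesion proteins that join neurons to one another. Contactins, Ncam, Nrcam, Lsamp, the Dscam proteins and netrin-Gs are surface proteins, most of them of the immunoglobulin superfamily, that take part in axon growth and synapse formation. Axon guidance works through ligand and receptor pairs, in which semaphorins act on plexins, ephrins on Eph receptors, Slits on Robo receptors, and netrins on Dcc and the Unc5 receptors. In the adult hippocampus several of these proteins remain at synapses.

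The level of a circRNA is given on the linear scale, as 10 to the power of the deposited log10 value, with 0 left at 0. A host sum is the summed level of all circRNAs assigned to that gene alone. The length of each circle is not given in the files used here, so neither quantity is corrected for length, and an order of hosts is an order of summed signal. Summed level over the whole table lay between 1990255 and 2050720 per library. Low values in each library were whole multiples of 1 fitted step, which becomes larger as a library becomes shallower. The step gave relative depths of 90.8 to 100% in Control and 81.9 to 89.8% in CUS, taking Control 1 as 100%. The lowest value above 0 was 17 such steps in each library, between 41.0 and 50.1, so a 0 may stand for a level below a limit set upstream and is not evidence that a circle was absent. Control libraries held 4329 to 4606 circRNAs above 0 and CUS libraries 3991 to 4273, so both depth and detection were lower in every CUS library than in every Control library, and the part of this in the results below was not tested.

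The adhesion and guidance hosts together held a summed level of 31673, 33743 and 32564 in Control 1, 2 and 3 against 34788, 36573 and 35703 in CUS 1, 2 and 3. The 3 CUS sums all lay above the 3 Control sums, with means of 35688 ± 893 (SD, n = 3) and 32660 ± 1038 (SD, n = 3), a difference of 3028 for which no test was made because the members were chosen as a list. As a share of the library's level this was 1.56 to 1.65% in Control and 1.74 to 1.80% in CUS. The number of circRNAs above 0 did not separate the groups, at 77, 73 and 77 of the 185 in Control and 58, 70 and 81 in CUS. The number of hosts above 0 was 39, 39 and 35 of 54 in Control and 35, 34 and 42 in CUS. Without Ncam2 the sums overlapped, with Control 2 above CUS 1 and CUS 3, at 28785, 31673 and 28431 in Control against 31524, 32119 and 31547 in CUS, and the difference was 2101. Without Ncam2 and Epha6 they did not overlap, at 24842, 27528 and 26752 in Control against 28131, 28926 and 27725 in CUS, with a difference of 1887. In whole tissue, a change in the share of a cell type and a change in circRNA per cell cannot be told apart.

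Signal was concentrated in a few hosts. Ncam2 alone held 10.2% of the members' level, the leading 6 hosts (Ncam2, Epha6, Dscam, Epha5, Cntn5 and Epha7) 46.9%, and the leading 20 hosts 77.0%. By family, Eph receptors held 27.9%, the Ncam, Nrcam, Lsamp, Dscam and netrin-G group 25.5%, contactins 11.7%, cadherins 9.01%, protocadherins 7.99%, Robos 6.45%, Slits 3.27%, plexins 3.20%, semaphorins 2.83%, Dcc with the Unc5 receptors 1.26% and ephrins 0.876%. The 10 hosts of highest sum each had a host sum above 0 in all 6 libraries. Over all 54 hosts, 18 were above 0 in all 6 libraries and 6 in 1 library only.

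**Figure D1:**
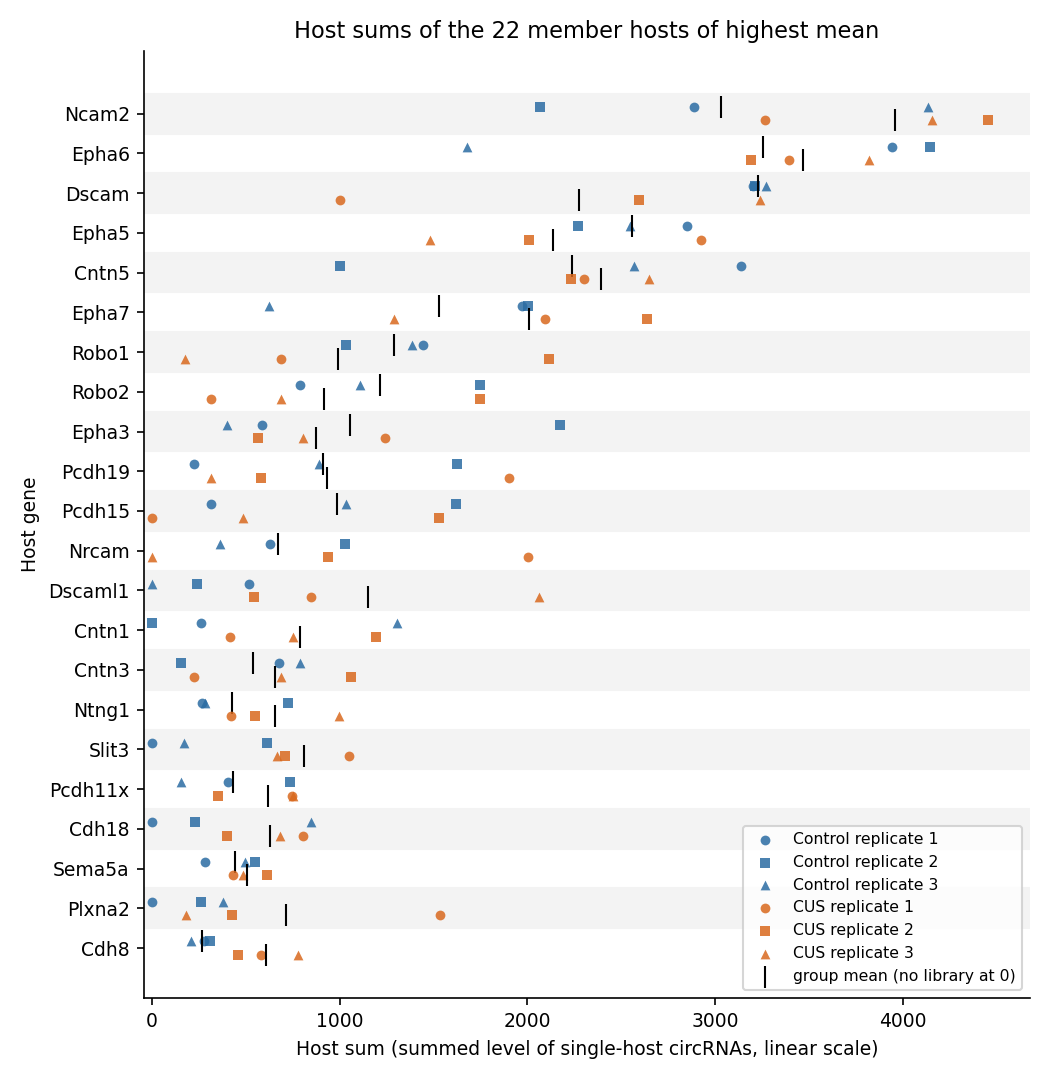
Host sums (summed level of single-host circRNAs, linear axis) of the 22 hosts of highest mean, with blue points for Control and orange points for CUS libraries, the marker shape for the replicate number, and a black tick for a group mean where no library was at 0. For most hosts the 2 colours overlap, as for Ncam2, whose Control points run from 2070 to 4133 and CUS points from 3264 to 4454, while the 3 CUS points of Cdh8, Slit3 and Dscaml1 all lie above their Control points.

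Among the classical and related cadherins, 10 hosts carried 25 circRNAs, and none of those circRNAs was above 0 in all 6 libraries. Family sums were 2223, 958 and 4272 in Control against 4104, 2983 and 3928 in CUS, which overlap. Cdh18, a type II cadherin, had the highest mean of the family, with 0, 229 and 846 in Control 1, 2 and 3 against 805, 398 and 682 in CUS 1, 2 and 3. Its groups overlap, and the limma fit gave a log2 difference of 1.54, SE 1.24, limma adjusted p = 0.918. Cdh8, a type II cadherin of cortical and hippocampal circuits (chromosome 8, 99024471 to 99416471, 392 kb), was the family's only host whose groups did not overlap, with 278, 310.1 and 210.1 in Control 1, 2 and 3 against 584, 459.9 and 780.1 in CUS 1, 2 and 3. The group means were 266 ± 51.0 (SD, n = 3) in Control and 608 ± 161 (SD, n = 3) in CUS, with a log2 difference of 1.05, SE 1.07, limma adjusted p = 0.918. The circles behind the Cdh8 sum differed between libraries. The circRNA mmu_circRNA010213 was listed at 0 in all 3 Control libraries and at 584, 221 and 410 in CUS, whereas mmu_circRNA010214 was at 278, 310 and 210 in Control against 0, 239 and 0 in CUS. The separation of the Cdh8 sums also rested on which circles were counted: with the 2 circRNAs that list Cdh8 beside another gene added, the sums became 1154, 507 and 1484 in Control against 1297, 957 and 780 in CUS, which overlap.

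Cdh2 encodes N-cadherin, the main classical cadherin of neurons, and its host sum was 480.4, 265 and 654 in Control against 115, 401 and 84.3 in CUS. Its circRNA mmu_circRNA004995 was at 0 in every Control library and at 115, 401 and 84.3 in CUS, where it was the only Cdh2 circle above 0, since the whole Cdh2 sum of each CUS library equals its level. Cdh10, a type II cadherin with 1 circRNA (mmu_circRNA003631), was at 316, 0 and 0 in Control against 598, 320.0 and 169 in CUS, above 0 in 1 Control and in all 3 CUS libraries. Cdh9, which acts at synapses from dentate granule cells to CA3, was above 0 in CUS 1 at 690 and CUS 3 at 696 and at 0 in the other 4 libraries, too few to test. The remaining cadherin hosts, Cdh4, Cdh7, Cdh12, Cdh19 and Cdh20, had host sums between 0 and 1087 and overlapping groups.

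Protocadherins gave 5 hosts and 19 circRNAs, with family sums of 1835, 4468 and 2383 in Control against 3491, 2466 and 1737 in CUS. All 5 are non-clustered protocadherins. Pcdh19, an X-linked adhesion protein that partners N-cadherin, had the highest mean, at 222, 1624 and 891 in Control 1, 2 and 3 against 1902, 584 and 313 in CUS 1, 2 and 3. The high value of CUS 1 came from mmu_circRNA011246, at 1557 there and at 0 in the other 5 libraries, while the leading Pcdh19 circle, mmu_circRNA011244, was at 222, 1114 and 891 in Control against 127, 172 and 313 in CUS. Pcdh15, known from the tip links of hair cells, had 8 circRNAs over a gene of 1550 kb and sums of 314, 1619 and 1032 in Control against 0, 1530.4 and 484 in CUS. CUS 1 stands apart as the only library at 0, and the fit for Pcdh15 (a log2 difference of -1.36, SE 1.07, limma adjusted p = 0.918) rested on it, since the log2 difference was 0.081 without that library. It was -0.89 without Control 2 and -2.48 without CUS 2. Pcdh9 was at 893, 489 and 0 in Control against 129.7, 0 and 0 in CUS, with a log2 difference of -1.99, SE 1.39, limma adjusted p = 0.918. That difference was -3.31 without Control 3, the Control library at 0. Pcdh11x and Pcdh17 had overlapping groups.

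The 5 contactins carried 29 circRNAs, and their family sums were 4623, 2108 and 5383 in Control against 2945, 4489 and 4463 in CUS. Contactins are anchored to the membrane by a lipid and act in cis and in trans with other adhesion proteins. Cntn5 (chromosome 9, 9660891 to 10904775, 1244 kb) held 3136, 1001 and 2569 in Control 1, 2 and 3 against 2303, 2235 and 2648 in CUS 1, 2 and 3, with means of 2235 ± 1106 (SD, n = 3) in Control and 2395 ± 221 (SD, n = 3) in CUS. The signal was spread over its 10 circRNAs: the leading one, mmu_circRNA010374, held 17.3% of the host's mean and was at 1103, 282 and 255 in Control against 0, 226 and 530.0 in CUS. A second Cntn5 circle, mmu_circRNA010375, was above 0 in every library, at 106, 103 and 250.0 in Control against 466, 258 and 853 in CUS, and its groups did not overlap. Cntn1, a contactin of the axon and the node of Ranvier, was at 261, 0 and 1306 in Control against 419, 1191 and 753 in CUS. Control 2 is its only library at 0, and the log2 difference of 1.54 became 0.26 without it and 2.71 without Control 3.

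Cntn6 (chromosome 6, 104492790 to 104863406, 371 kb), a contactin also called NB-3, was above 0 in Control libraries only, at 261, 514 and 718, and was listed at 0 in all 3 CUS libraries. It entered the test through the Control libraries alone and so had to differ in fitted value (a log2 difference of -3.48, SE 1.36, limma adjusted p = 0.707). With a group at 0 this value depends on the pseudocount, and it was -5.69 with 0.2 times and -1.62 with 5 times the pseudocount. Leaving out any Control library took it below the minimum of 3 libraries above 0. Its 3 circRNAs were each above 0 in too few libraries to be tested one by one. Cntn3 had sums of 676, 154 and 790.0 in Control against 224, 1062 and 688 in CUS, and its circRNAs mmu_circRNA008946 (149.7, 103 and 340.5 in Control against 0, 116 and 0 in CUS) and mmu_circRNA008948 (57.9, 50.4 and 194 in Control against 0, 48.4 and 0 in CUS) were high and low in the same libraries. Cntn4 was above 0 in 3 libraries, at 290, 439 and 0 in Control against 0, 0 and 375 in CUS.

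The 7 hosts of the Ncam, Nrcam, Lsamp, Dscam and netrin-G group carried 33 circRNAs, with family sums of 8305, 7597 and 8658 in Control against 7792, 9080 and 10778 in CUS. Ncam2, an olfactory and hippocampal relative of Ncam1 (chromosome 16, 81200697 to 81626828, 426 kb), ranked 51 of all 3667 hosts by mean and was the highest member. Its 6 circRNAs summed to 2888, 2070.0 and 4133 in Control 1, 2 and 3 against 3264, 4454 and 4156 in CUS 1, 2 and 3, with means of 3030.3 ± 1039 (SD, n = 3) in Control and 3958 ± 619 (SD, n = 3) in CUS and a log2 difference of 0.42, SE 0.39, limma adjusted p = 0.918. Its groups overlap through Control 3. Its leading circle, mmu_circRNA004393, was at 447, 668 and 1514 in Control against 2214, 1759 and 2098 in CUS, and these groups do not overlap. The limma fit for mmu_circRNA004393 gave a log2 difference of 1.33, SE 0.62, limma adjusted p = 0.754. This circle made up 15.5, 32.3 and 36.6% of the Ncam2 sum in Control and 67.8, 39.5 and 50.5% in CUS. A second circle, mmu_circRNA004391, was at 1497, 852 and 1293 in Control against 106, 1949.8 and 1016 in CUS, without separation, and mmu_circRNA004390 was at 666, 549.7 and 0 in Control against 943, 489.6 and 911 in CUS.

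Dscam, the Down syndrome cell adhesion molecule used in neurite self-avoidance (chromosome 16, 96590840 to 97170752, 580 kb), had the steadiest Control values of the leading hosts, at 3204, 3215 and 3272, against 999, 2595 and 3237 in CUS. Group means were 3229.9 ± 36.5 (SD, n = 3) in Control and 2277 ± 1152 (SD, n = 3) in CUS, with a log2 difference of -0.65, SE 0.45, limma adjusted p = 0.918. CUS 1 alone was far from the others, and the log2 difference was -0.15 without it and -0.98 without CUS 3. Its circle mmu_circRNA004494 held 70.7% of the host's mean and between 63.1 and 74.9% of its sum in each library, at 2185, 2029.5 and 2449.6 in Control against 743, 1907 and 2362 in CUS, so the low Dscam sum of CUS 1 is shared by its leading circle. A minor circle, mmu_circRNA004490, was at 577, 0 and 583 in Control against 0, 0 and 78.8 in CUS. Dscaml1, the paralogue of Dscam (chromosome 9, 45426628 to 45753712, 327 kb), had 4 circRNAs and non-overlapping sums, at 519, 242 and 0 in Control 1, 2 and 3 against 846, 546 and 2060.3 in CUS 1, 2 and 3. The fit gave a log2 difference of 2.41, SE 1.12, limma adjusted p = 0.749, and the log2 difference was 1.36 without Control 3, the only library at 0. The unadjusted p was above 0.05 without Control 3, CUS 1 or CUS 3, with 0.2 times the pseudocount and with no variance trend. Its leading circle, mmu_circRNA010516, was at 249, 242 and 0 in Control against 0, 401 and 1223 in CUS, which overlaps, so the 3 CUS sums were made of different circles: mmu_circRNA010515 at 560 and mmu_circRNA010514 at 286 in CUS 1, mmu_circRNA010516 at 401 and mmu_circRNA010514 at 145 in CUS 2, and mmu_circRNA010516 at 1223 with mmu_circRNA010517 at 837 in CUS 3.

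Nrcam, an ankyrin-binding protein of the node of Ranvier, was at 628, 1029 and 362 in Control against 2005, 936 and 0 in CUS. Ntng1, netrin-G1, a presynaptic ligand of Lrrc4c, was at 268, 726 and 282 in Control against 422, 549 and 998 in CUS. Lsamp, an IgLON protein of the limbic system and the longest member gene at 2197 kb, had 4 circRNAs of which 3 were intronic, and sums of 555, 0 and 609 in Control against 257, 0 and 0 in CUS. Ncam1 was above 0 in 3 libraries, at 244, 315 and 0 in Control against 0, 0 and 326 in CUS. All 4 had overlapping groups.

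**Figure D2:**
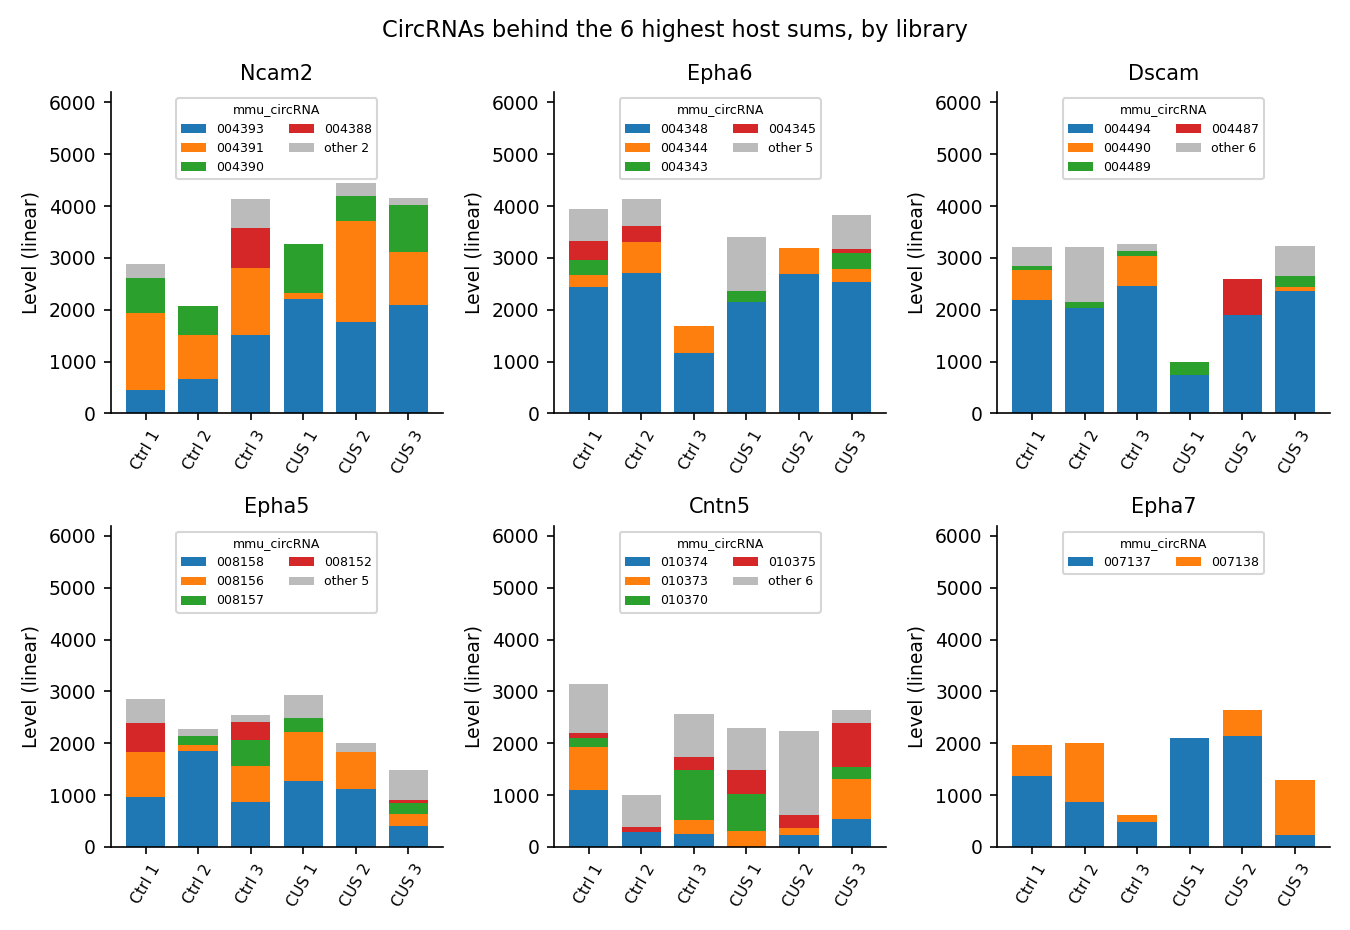
Stacked bars of the circRNAs behind the 6 highest host sums (linear level, from 0), 1 bar per library, with the 4 circRNAs of highest mean coloured, the remaining ones in grey, and the numbers in each key giving the circRNA names. In Epha6 and Dscam 1 circle (blue) fills most of every bar, in Cntn5 no circle does, and in Ncam2 the blue circle runs from 447 to 1514 in Control and from 1759 to 2214 in CUS.

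Ligand families gave little signal, with 2.83% of the members' level for semaphorins, 3.27% for Slits and 0.876% for ephrins. Among receptors, plexins at 3.20% and Dcc with the Unc5 receptors at 1.26% were also low. Of 20 semaphorin genes in the annotation 7 had a circRNA, with 11 circles in all, and Sema5a was the only one of the 7 above 0 in enough libraries to be tested. Sema5a, a transmembrane semaphorin that limits dendritic spine number, was at 282, 549.7 and 495 in Control 1, 2 and 3 against 430.4, 613 and 484 in CUS 1, 2 and 3, with means of 442 ± 141 (SD, n = 3) in Control and 509 ± 94.0 (SD, n = 3) in CUS and a log2 difference of 0.22, SE 0.98, limma adjusted p = 0.964. In each library exactly 1 of its 5 circles was above 0. The other 6 semaphorins, Sema3e, Sema4a, Sema5b, Sema6a, Sema6b and Sema7a, were above 0 in 1 or 2 libraries each. Efnb2, a transmembrane ephrin, was the only ephrin with a circRNA, at 106, 0 and 540.0 in Control against 0, 683 and 468 in CUS. The 3 Slits, secreted ligands of the Robo receptors, carried 14 circRNAs, 12 of which were above 0 in 1 library only. Slit3 (chromosome 11, 35121224 to 35708507, 587 kb) had the highest mean of the Slits and non-overlapping sums, at 0, 615 and 173 in Control 1, 2 and 3 against 1052, 710.0 and 669 in CUS 1, 2 and 3, with a log2 difference of 2.17, SE 1.20, limma adjusted p = 0.918. That log2 difference became 1.14 without Control 1, its only library at 0. Its leading circle, mmu_circRNA001536, was at 0, 232 and 173 in Control against 459.9, 0 and 0 in CUS, so here too the CUS sums came from different circles. Slit1 was at 188, 595 and 170.2 in Control against 486, 0 and 924 in CUS and Slit2 at 0, 0 and 532 in Control against 0, 237 and 353 in CUS.

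Eph receptors, the tyrosine kinases that bind ephrins, were the family of highest signal, with 8 hosts, 31 circRNAs and sums of 9985, 11868 and 5250 in Control against 10840, 10358 and 8994 in CUS. Epha6 (chromosome 16, 59653483 to 60605531, 952 kb) had 9 circRNAs and 3943, 4145 and 1678 in Control 1, 2 and 3 against 3393, 3193 and 3822 in CUS 1, 2 and 3. Control 3 stands below the other 5 libraries, the means were 3255 ± 1369 (SD, n = 3) in Control and 3469 ± 321 (SD, n = 3) in CUS, and the fit gave a log2 difference of 0.19, SE 0.41, limma adjusted p = 0.941. The circle mmu_circRNA004348 held 67.8% of its mean and ranked 41 of all 10652 circRNAs, at 2429, 2713 and 1162 in Control against 2146, 2689.7 and 2533 in CUS. A pair of intronic Epha6 circles, mmu_circRNA004346 and mmu_circRNA004347, were above 0 in CUS 1 only and at the same level of 513, and whether they share reads was not tested. Epha5 (chromosome 5, 84054761 to 84417382, 363 kb) was at 2849, 2269 and 2548 in Control 1, 2 and 3 against 2927, 2007 and 1484 in CUS 1, 2 and 3, with means of 2555 ± 289.9 (SD, n = 3) in Control and 2139 ± 731 (SD, n = 3) in CUS. Its leading circle, mmu_circRNA008158, was the only intronic circRNA of the 185 above 0 in all 6 libraries, at 954, 1858 and 862 in Control against 1268, 1124 and 402 in CUS. A low Epha5 circle, mmu_circRNA008154, was at 130.4, 124 and 136 in Control against 0, 64.6 and 68.0 in CUS, and its groups did not overlap.

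Epha7 (chromosome 4, 28813131 to 28967499, 154 kb) had 2 circles and sums of 1970.1, 2002 and 622 in Control 1, 2 and 3 against 2096, 2638 and 1288 in CUS 1, 2 and 3, again with the lowest value in Control 3. The balance of the 2 circles varied between libraries without following the groups: mmu_circRNA007137 made up 69.7, 43.7 and 78.6% of the sum in Control and 100, 81.2 and 18.6% in CUS. Epha3 was at 584, 2176 and 402 in Control against 1244, 565 and 807 in CUS, with its high Control 2 value due to mmu_circRNA004354, at 1871 there and between 0 and 468 elsewhere. Among the lower receptors, Epha4 was at 106, 514 and 0 in Control against 0, 904 and 239 in CUS, Epha10 at 0, 328 and 0 in Control against 1179, 541 and 0 in CUS and Ephb2 at 534, 434 and 0 in Control against 0, 312 and 315 in CUS, all overlapping. Ephb1 was above 0 in 2 CUS libraries only, at 199 and 1038, and was not tested.

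Robo1 and Robo2, the Slit receptors, carried 4 and 2 circRNAs. Robo1 (chromosome 16, 72308306 to 73046095, 738 kb) was at 1444, 1036 and 1386 in Control 1, 2 and 3 against 687, 2114 and 174 in CUS 1, 2 and 3, with a log2 difference of -0.91, SE 0.73, limma adjusted p = 0.918. That difference was -0.07 without CUS 3, the lowest library, and -1.72 without CUS 2, the highest. Robo2 (chromosome 16, 73891839 to 74411825, 520 kb) was at 787, 1747 and 1109 in Control 1, 2 and 3 against 313, 1748 and 685 in CUS 1, 2 and 3, of which mmu_circRNA004374 made up 91.4% by mean. CUS 2 was the highest library for Robo1, and for Robo2 CUS 2 and Control 2 were about equal. For both receptors CUS 1 and CUS 3 lay below every Control library. The CUS values thus spread further than the Control values, at 859 to 3862 for the Robo sum against 2231 to 2784.

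Plexins, the semaphorin receptors, were the only family whose sums did not overlap, at 826, 877 and 551 in Control against 2323, 1092 and 894 in CUS. The nearest values were 877 in Control 2 and 894 in CUS 3, and among single hosts 11.4% of all tested did not overlap. No test was made of the plexin sum, and the difference of its means, 685, was 242 without CUS 1. Plxnc1, the receptor of Sema7a (chromosome 10, 94790866 to 94944835, 154 kb), was at 0, 134 and 0 in Control 1, 2 and 3 against 525, 290.5 and 476 in CUS 1, 2 and 3, with a log2 difference of 2.69, SE 1.46, limma adjusted p = 0.918. Plxna2, a receptor for class 6 semaphorins in the hippocampus (chromosome 1, 194618218 to 194816869, 199 kb), was at 0, 259.7 and 380.4 in Control 1, 2 and 3 against 1533, 428 and 182 in CUS 1, 2 and 3, and Plxna4 at 826, 484 and 170.2 in Control against 265, 374 and 236 in CUS, which overlap. Of the netrin receptors, Dcc was at 50.7, 247 and 473 in Control against 324, 0 and 193 in CUS. Unc5c was at 0, 270 and 567 in Control against 0 in all 3 CUS libraries, and Unc5d was above 0 only in Control 2, at 454. Neither Unc5 receptor was tested.

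**Figure D3:**
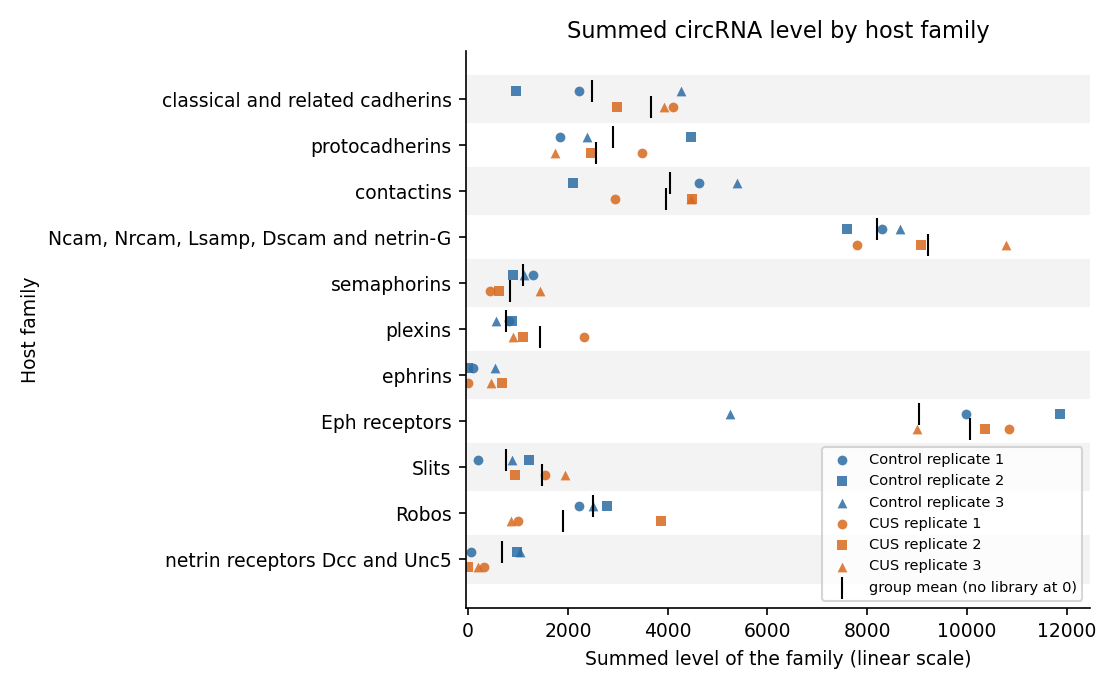
Summed circRNA level by host family (linear axis), with blue points for Control and orange points for CUS libraries, the marker shape for the replicate number, and a black tick for a group mean where no library was at 0. Plexins separate, at 551 to 877 in Control and 894 to 2323 in CUS, and every other family overlaps, with Eph receptors ranging from 5250 to 11868.

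Each host sum was compared between CUS and Control with limma on log2(level + 45.5), over all hosts above 0 in at least 3 of the 6 libraries. Of the 54 member hosts 43 passed that minimum and 11 did not (Cdh4, Cdh9, Ephb1, Sema3e, Sema4a, Sema5b, Sema6a, Sema6b, Sema7a, Unc5c and Unc5d). No member host passed an adjusted p of 0.05 (Benjamini-Hochberg), and none of the 2148 hosts tested did (0.0%), the lowest adjusted p among members being 0.707, for Cntn6. At an unadjusted limma p under 0.05 there were 2 member hosts, Dscaml1 higher and Cntn6 lower in CUS, or 4.65% of the 43 against 5.87% of all hosts tested (2.56% higher, 3.31% lower). Cntn6 passed the minimum through the Control libraries alone. It was at 0 in every CUS library, so its direction and lack of overlap followed from that minimum. The count of member hosts was 1 without Control 1, Control 3 or CUS 1 and 3 without Control 2 or CUS 2. Groups did not overlap for 5 members, or 11.6% against 11.4% of all hosts, with Dscaml1, Plxnc1, Slit3 and Cdh8 higher (9.30% against 5.87%) and Cntn6 lower (2.33% against 5.49%). The fitted value was higher in CUS for 25 members (58.1%, against 48.1% of all hosts) and lower for 18, with a median log2 difference of 0.22 beside -0.05 over all hosts tested. That median lay between 0.03 and 0.40 across the alternatives, the lowest with circRNAs of several listed genes added.

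**Figure D4:**
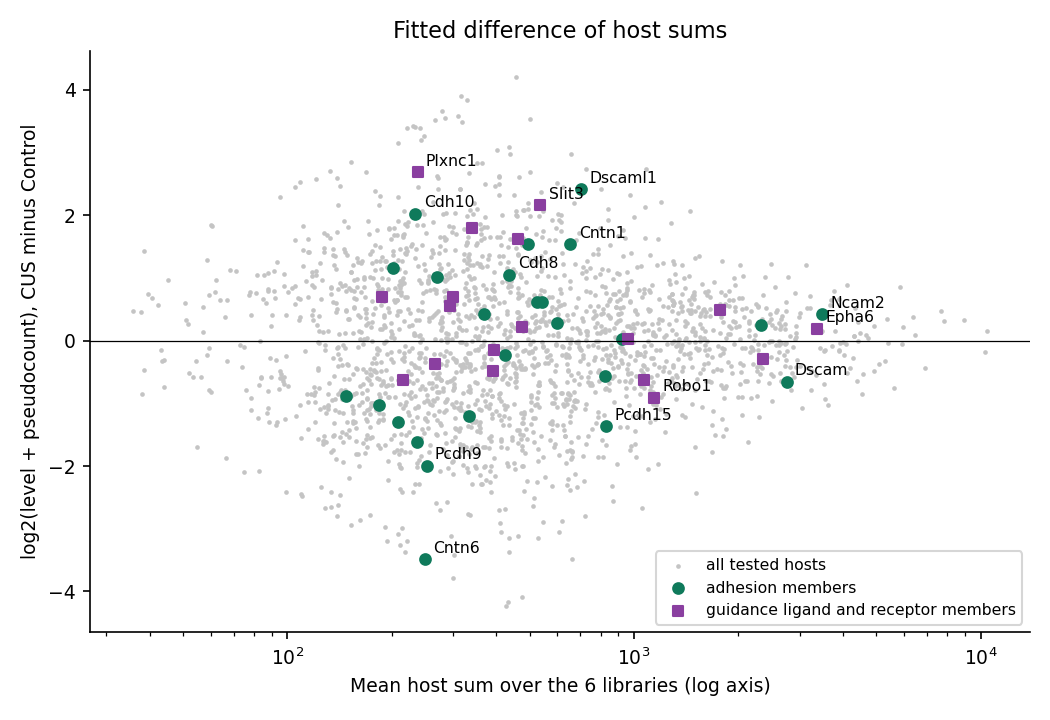
Fitted difference between CUS and Control on log2(level + pseudocount) against the mean host sum (log axis), with grey points for all 2148 tested hosts, green circles for adhesion members and purple squares for guidance members. The members lie among the other hosts, from -3.48 for Cntn6 to 2.69 for Plxnc1, and the 6 highest members lie between -0.65 and 0.49.

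At the level of single circles 70 of the 185 circRNAs were above 0 in at least 3 libraries. None passed an adjusted p of 0.05 in limma, nor did any of the 3896 circRNAs tested (0.0%), and 3 members had an unadjusted p under 0.05, or 4.29% against 6.01% of all tested (2.75% higher, 3.26% lower). These were the Cdh8 circle mmu_circRNA010213 (a log2 difference of 3.22, SE 1.26, limma adjusted p = 0.577), the Cdh2 circle mmu_circRNA004995 (a log2 difference of 2.21, SE 0.94, limma adjusted p = 0.577) and the Ncam2 circle mmu_circRNA004393, each higher in CUS. The first 2 passed the minimum through the CUS libraries alone, and their fitted values depend on the pseudocount, as for mmu_circRNA010213, at 5.40 with 0.2 times and 1.43 with 5 times the pseudocount. Leaving out libraries changed this count, to 0 without Control 1, CUS 1 or CUS 2 and to 1 without Control 3. Groups did not overlap for 6 member circles, or 8.57% against 10.9%, of which 4 were higher in CUS (in Ncam2, Cntn5, Cdh8 and Cdh2; 5.71% against 5.78%) and 2 lower (in Epha5 and Cntn3; 2.86% against 5.08%). For the Cdh8 and Cdh2 circles this followed from the minimum. The Cntn3 circle, mmu_circRNA008948, separated narrowly, at 50.4 in Control 2 against 48.4 in CUS 2. The lowest values above 0 in these libraries were 42.9 and 45.7. By fitted value 32 member circles were higher (45.7%, against 47.2% of all tested) and 38 lower, with a median of -0.29 beside -0.12 for all circRNAs tested. The median over member circles lay between -0.48 and 0.03 across the alternatives, the highest with no filter, so its sign is not settled. Among the circles of lower fitted value with the smallest p were mmu_circRNA008152 of Epha5 (546, 0 and 346 in Control against 0, 0 and 65.2 in CUS) and mmu_circRNA004490 of Dscam (a log2 difference of -2.04, SE 1.33, limma adjusted p = 0.872). Without Control 2 their log2 differences were -2.97 for mmu_circRNA008152 and -3.30 for mmu_circRNA004490.

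Most member circles were seen in few libraries. Of the 185, 78 (42.2%) were above 0 in 1 library, against 36.9% of the whole table, and 12 (6.49%) in all 6, against 7.55%. Those 12 held 37.3% of the members' level, and the 78 held 17.3%. Circles above 0 only in Control libraries numbered 49 (26.5%, against 27.0% of the table) and only in CUS libraries 50 (27.0%, against 23.4%).

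The member hosts shared features that their names do not fix. Their genes had a median length of 326 kb, against 75.4 kb over all 3667 hosts, and 35 of 54 (64.8%) were longer than 200 kb, against 18.5%. They had a median of 18 exons in the transcript with most exons, against 14, and 3 circRNAs per host, against 2. Per 100 kb of gene they had fewer circRNAs, with a median of 1.03 against 2.58. Every host compared has at least 1 circRNA, so this value tends to be lower in longer genes and is not separate from length. Intronic circles made up 9.73% of the members against 5.04% of single-host circRNAs. Across the 54 hosts longer genes had more circRNAs, with a Spearman rho of 0.56 between gene length and number of circles, and rho was 0.44 over all hosts; these are descriptions across genes, which share libraries and depth. Chromosome 16 held 8 of the 54 hosts (14.8%, against 3.68% of all hosts) and 40 of the 185 circles: Ncam2, Epha6, Dscam, Robo1, Robo2, Epha3, Lsamp and Sema5b, which together made up 38.4% of the members' level, against 4.30% over all hosts.

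Of 170 protein-coding genes that carry these family names, 116 had no circRNA assigned to them alone. All 57 clustered protocadherins were among these, and 20 of the 57 appear in circRNAs that list several genes. The other 59 had a median length of 27.9 kb. Long genes were also found without one, as Cdh13 at 1041 kb, Sema6d at 578 kb, Sema3a at 477 kb, Cdh23 at 394 kb and Efna5 at 277 kb. Lack of a circRNA in this table says only that none was listed for that gene alone.

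**Figure D5:**
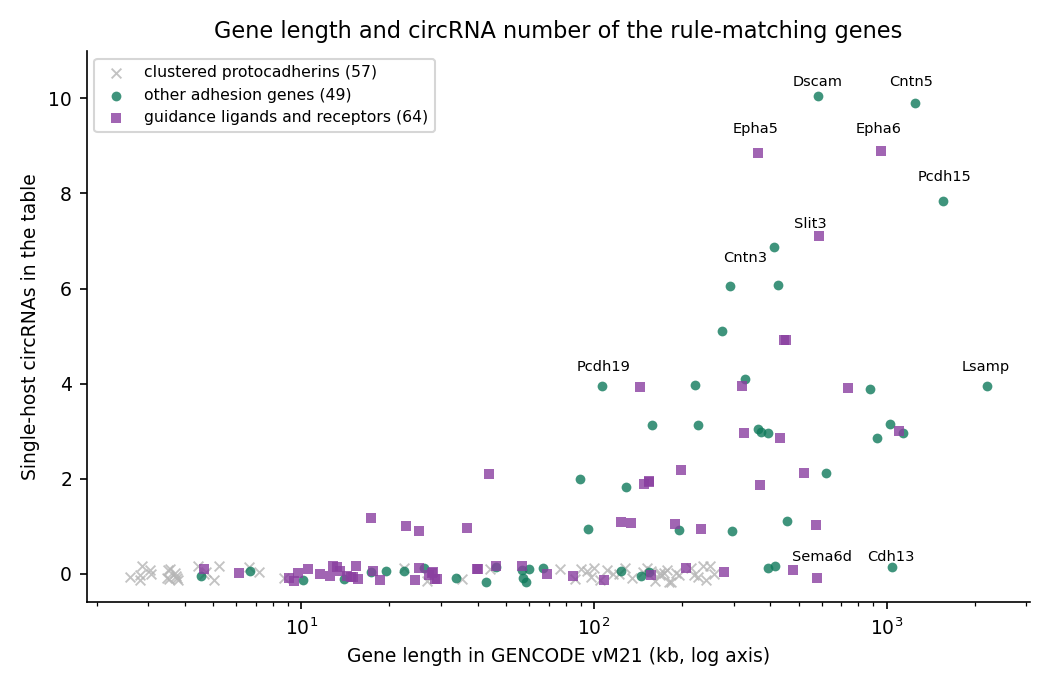
Number of single-host circRNAs against gene length (kb, log axis) for the 170 genes with these family names, each point 1 gene, with a small random vertical shift so that points do not hide each other. Genes with 8 or more circles are Cntn5, Dscam, Epha5, Epha6 and Pcdh15, all longer than 200 kb, whereas the clustered protocadherins (crosses) and long genes such as Cdh13 and Sema6d are at 0.

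Partners of these proteins were described from 4 lists of 118 genes, of which 75 had a circRNA and 54 could be tested. By fitted value 26 were higher and 28 lower in CUS, none passed an adjusted p of 0.05 in limma, and 3 had an unadjusted p under 0.05 (Neo1, Pak1 and Pak3; 5.87% of all hosts tested did). Groups did not overlap for 5 of the 54, namely Cntnap2 and Pak1, higher in CUS, and Neo1, Gpc5 and Pak3, lower. Over all hosts tested 11.4% did not overlap. Among catenins and other cadherin partners 3 of 7 tested hosts were higher and 4 lower, with a median log2 difference of -0.02, and Afdn, the junction scaffold afadin, had the smallest p (a log2 difference of 0.75, SE 0.83, limma adjusted p = 0.918; 1.18 without Control 1). Of the partners of contactins, Ncam and IgLONs 8 of 16 were higher and 8 lower, with a median of 0.02. Cntnap2, the partner of Cntn2 at the juxtaparanode, had the smallest p there and non-overlapping groups, at 0, 90.8 and 154 in Control against 666, 616 and 359 in CUS, with a log2 difference of 2.42, SE 1.44, limma adjusted p = 0.918. That difference was 1.35 with circRNAs of several listed genes added. Among guidance co-receptors and other ligands 3 of 6 were higher and 3 lower, with a median of -0.31. Neo1, the Dcc relative neogenin that binds netrins and RGM proteins (chromosome 9, 58874687 to 59036441), was at 753, 1169.9 and 1016 in Control 1, 2 and 3 against 59.0, 231 and 239 in CUS 1, 2 and 3, without overlap. Its means were 979.7 ± 211 (SD, n = 3) in Control and 176 ± 102 (SD, n = 3) in CUS, with a log2 difference of -2.32, SE 1.07, limma adjusted p = 0.738. Of the signalling genes downstream of guidance receptors 12 of 25 were higher and 13 lower, with a median of -0.03. Among these the kinases Pak3 (1777, 1049 and 1157 in Control against 1029, 196 and 0 in CUS; a log2 difference of -2.56, SE 1.02, limma adjusted p = 0.707) and Pak1 (0, 295 and 0 in Control against 1235, 613 and 465 in CUS; a log2 difference of 3.09, SE 1.45, limma adjusted p = 0.757), effectors of Rac and Cdc42, lay in opposite directions. The Pak3 difference was -1.39 without CUS 3, its only library at 0.

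Markers of cell types were counted in the same way. Neuronal genes had circRNAs for 9 of 12 markers, with sums of 14669 to 21491 in Control and 19996 to 21177 in CUS, and dentate and pyramidal genes, Prox1 (at most 538) and Zbtb20 (1300 to 4032) among them, for 6 of 11, with 4277 to 6951 and 6947 to 7375. Interneuron sums (4 of 9) were 2219 to 4428 and 1737 to 6232, astrocyte sums (5 of 10) 1375 to 2075 and 1710 to 2954, and oligodendrocyte sums (5 of 9) 1374 to 2040 and 2039 to 2989. For microglia 1 of 8 markers had a circRNA (Mertk, 208 to 1714 and 0 to 275), for choroid plexus and vessels 1 of 9 (0 to 176 and 0 to 233), and for thalamus and striatum 2 of 8 (0 to 559 and 0 to 277). Defining genes without any circRNA included Gad1, Gad2, Aqp4, Csf1r and Ttr. At an unadjusted limma p under 0.05 were Grin2b, Rfx3 and Adarb2, higher in CUS, and Galntl6 and Mertk, lower in CUS, none of them at an adjusted p under 0.05. They were 1 of 8 tested neuronal, 1 of 4 dentate and pyramidal, 2 of 3 interneuron and 1 of 1 microglial markers. None of the 5 tested astrocyte or 3 tested oligodendrocyte markers was among them. Over all hosts tested the share was 5.87%. Of the markers called, only Rfx3 had groups that did not overlap, at 1195, 1788 and 1426 in Control against 4395, 2910 and 3158 in CUS. Groups also did not overlap for the astrocyte marker Gpc5, at 377, 1056 and 801 in Control against 348, 296 and 179 in CUS. The same held for the oligodendrocyte marker Slc44a1, at 444, 0 and 556 in Control against 1427, 557 and 598 in CUS. Its groups lay less than 1 step apart, at 555.9 in Control 3 against 556.7 in CUS 2. Over all hosts tested 11.4% did not overlap. The part of cell composition in the member values was not tested.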

How the data were processed

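Poly(A)-selected RNA of 6 hippocampal libraries (3 CUS, 3 Control) was sequenced as read pairs on an Illumina instrument, per the labels' protocols. The authors deposited 1 table of log10 values per circRNA, with 0 for entries listed without a value, whether absent or below a limit; their normalization and circRNA caller are not given in the sources used here. Per the submitters' processing notes the tools StringTie, DESeq and edgeR and the build mm9 were named, with no role. Host identifiers were matched to GENCODE vM21 (GRCm38): 4467 of 4483 matched, and gene positions printed here are those of host genes in GRCm38, not of circles.

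Levels are 10 to the deposited value. In every library all values below 300 steps were whole multiples of 1 fitted step within 0.05 of a step. Host sums used the 9194 circRNAs with 1 matched host; 786 with several hosts, 658 intergenic and 14 unmatched ones were left out. Differences were fitted with limma 3.58.1 (R 4.3.3; eBayes with trend) on log2(level + 45.5), where 45.5 is each library's lowest nonzero level, taken as the median of the 6, for features above 0 in at least 3 libraries, with Benjamini-Hochberg adjustment over all of them. A fold on this scale understates that of low hosts. The script was tested on simulated data. Alternatives were the pseudocount, the filter, 2 scalings, no variance trend, a replicate block, each library left out, circRNAs of several hosts added and close pairs counted once. Families were summed without a test.

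Members and lists were chosen with earlier results of these data known. Genes were named by rule: the 10 highest hosts, the 5 higher and 5 lower of smallest p, every host without overlap, the highest of each family, and the circles behind them by the same rule. Other names (such as Cdh2, Cntn3, Nrcam and Pak1) were chosen after their values were seen.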

Additional observations from a re-analysis of the deposited data

Results flagged for a closer look

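The circle mmu_circRNA005797 lists 2 genes, Ntng2 (netrin-G2, a presynaptic ligand of Lrrc4) and 6530402F18Rik, so it enters none of the single-host sums; it counts only where circRNAs of several listed genes are added. It drew attention because its CUS values all exceed its Control values, at 801, 1059 and 1415 in Control against 2223, 1460 and 3264 in CUS, with a CUS mean of 2316. The limma fit gave an adjusted p of 0.872 for this circle. A second circle of the same pair of genes, mmu_circRNA005798, was at 123, 0 and 261 in Control against 427, 194 and 911 in CUS, which overlap. Which of the listed genes gives rise to either circle was not tested.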

How the results depend on the processing

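No host and no circRNA passed an adjusted p of 0.05 in limma under any alternative run, and the lowest adjusted p lay between 0.191 (no variance trend) and 0.959 for hosts and between 0.329 and 0.962 for circRNAs. Counts at an unadjusted p under 0.05 moved most. Requiring features above 0 in all 6 libraries left 871 hosts to test (from 2148) and 804 circRNAs (from 3896). Members tested were then 18 hosts (from 43) and 12 circRNAs (from 70). The counts there were 51 of all hosts (from 126), 0 member hosts (from 2), 32 of all circRNAs (from 234) and 1 member circRNA (from 3). Fewer features were tested there. Over all hosts the count fell about in proportion to the number tested, and over all circRNAs it fell further. With 0.2 times the pseudocount there was 1 member host. Leaving out each library in turn gave 76 to 99 hosts, 1 to 3 member hosts, 94 to 135 circRNAs, 0 to 2 member circRNAs and 0 to 4 partner hosts (from 3). Fewer features were tested in these fits too, with 37 to 41 member hosts and 50 to 58 member circRNAs. Only the hosts and circles of smallest p, the hosts without overlap and the partner of smallest p in each list were followed one by one. Of these, Pcdh15 alone turned its direction, lying between -2.48 and 0.081 with each library left out and at 0.081 without CUS replicate 1. Other named hosts were not followed in this way. With circRNAs of several listed genes added, Cntn3 went from 0.29 to -0.13 and Pcdh11x from 0.61 to -0.007. The difference of the members' total, 3028, was 2535 to 3570 with each library left out, 2101 without Ncam2 and 1887 without Ncam2 and Epha6, settings added after the data were seen. Differences of the family sums changed sign with a library left out for protocadherins (-861 to 456), contactins (-1037.5 to 600.2) and Eph receptors (-862 to 2446). Same-numbered samples did not vary together (correlations of -0.03, -0.04 and -0.07 over hosts). Other pairings of a Control and a CUS sample gave -0.006 to 0.05. Samples handled together need not vary together in such values, so whether the numbers pair them was not settled. With the replicate number as a block the counts were 123 hosts, 2 member hosts, 215 circRNAs, 2 member circRNAs and 4 partner hosts, with no adjusted call. Member hosts and circles above 0 in fewer than 3 libraries could not be compared at this depth, among them 11 hosts.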

Other observations

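Circles that list a gene of these families beside other genes numbered 16. One of them, mmu_circRNA005092, lists 24 genes, 20 of them clustered protocadherins of the gamma cluster, and was at 0, 330 and 0 in Control against 91.4, 0 and 351 in CUS. Pcdh7, a long non-clustered protocadherin with no circle of its own, appears in mmu_circRNA008071, at 456, 376 and 1388 in Control against 997, 0 and 951 in CUS. Pcdh11x appears in mmu_circRNA011236, at 1168, 540 and 0 in Control against 540, 0 and 0 in CUS, and the Cdh8 pair mmu_circRNA010216 and mmu_circRNA010217 had similar levels, such as 111 and 85.7 in Control 2 and 357 for both in CUS 1. With the 3 Ntng2 circles added to that gene, Ntng2 sums were 925, 1059 and 1676 in Control against 2650, 2015 and 4175 in CUS, without overlap (log2 difference 1.22, SE 0.50, limma adjusted p = 0.735).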
